A study of Mus musculus with 6 samples.

Results

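DNA repair and damage checkpoint genes were examined in regulatory T cells (Treg), the CD4+ T cells that restrain immune responses, from mice that carried a floxed gene for the histone acetyltransferase p300 together with Foxp3cre. The members are 46 genes named by function, and the levels of 44 of them could be read among 12393 genes on the array. No probe set is annotated to Lig4 in the table used, and Tdg is listed only by probe sets that also name its pseudogenes. CD4+CD25+ cells were separated with magnets from C57Bl/6 mice, and 3 samples of genotype fl-p300/Foxp3cre (called p300-deleted here) were compared with 3 samples of genotype Foxp3cre (called control here, and WT in their titles), with 1 expression array for each sample. By these genotype labels every sample carried Foxp3cre, the Cre recombinase named for the Treg transcription factor Foxp3, and only the first group carried the floxed p300 gene. The sources used here give neither ages nor whether a sample held cells of 1 animal or of a pool. By the study's title, the comparison concerns what p300 does for the function of Foxp3+ Treg.

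Cells mend DNA by several routes. Homologous recombination copies an intact sister strand and so works after DNA has been replicated, while end joining seals breaks directly at any stage of the cell cycle. Base excision removes single damaged bases, nucleotide excision removes bulky lesions, mismatch repair corrects copying errors, and checkpoint kinases halt the cycle while repair proceeds. Many recombination and checkpoint genes are transcribed mainly in cycling cells, whereas the core of end joining and nucleotide excision is present in resting lymphocytes as well.

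The targeted gene Ep300 could not be read, because 0 probe sets name it, so its deletion could not be checked here and the group name rests on the labels. Its paralogue Crebbp was at 7.47 ± 0.08 (SD, n = 3) in p300-deleted and 7.43 ± 0.17 (SD, n = 3) in control cells on the log2 scale. The Foxp3 probe set read 2.57 to 3.15 in p300-deleted and 9.35 to 9.63 in control arrays, so by this probe set the defining marker of the labelled cell type was near the floor of the p300-deleted arrays. The sources used here do not describe how the Foxp3 allele was built. Whether that allele was the same in both groups was not tested. Il2ra, which encodes CD25, read 9.09 to 9.17 and 8.62 to 9.07. Of 8 Treg markers, Foxp3 and Il2ra among them, 6 had a higher mean in p300-deleted cells and 2 a lower one. Foxp3 (lower) and Izumo1r (higher by 0.62) passed the limma test given below. The other lower marker, Tnfrsf18, differed by -0.16. Arrays correlated at 0.98553 to 0.99590 with each other over all probe sets. For Gapdh, whose 3' and 5' control probe sets report on RNA integrity, the 3' signal exceeded the 5' signal by 0.06 to 0.14 in p300-deleted and by 0.21 to 0.59 in control arrays, without overlap. The same measure for actin overlapped, at 0.29 to 0.43 and 0.30 to 0.46. The 18S ribosomal RNA control probe sets averaged 7.74 to 9.47 in p300-deleted and 5.68 to 8.69 in control arrays. The part of RNA integrity in the results below was not tested, and 18S was fitted as a covariate.

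Of the 43 members bright enough to test, 5 fell in p300-deleted cells and 0 rose in limma (adjusted p under 0.05 over 8675 genes). Those that fell were Rad51b, Rad51ap1 and Exo1 of homologous recombination, the checkpoint kinase Chek1 and the uracil glycosylase Ung. The measured falls were 1.67- to 2.12-fold, and 2.32-fold for Rad51b, whose p300-deleted values all lay under the limit for dim genes (3.91). This is 11.6% of the tested members, where 1.72% of all genes tested changed, 0.726% falling and 0.991% rising. Since the members were chosen with earlier results of these data known, these shares and those below are description and not a test. At an unadjusted p under 0.05, 9 members were lower and 2 higher, against 9.89% of all genes lower and 8.21% higher. Groups lay apart without overlap, lower in p300-deleted cells, for 11 members (25.6%, against 13.2% of all genes) and higher for 4 (10.5% of all genes). The median difference over the tested members was -0.14 on the log2 scale, beside -0.03 over all genes tested. Each difference below is the p300-deleted mean less the control mean, in log2 units, followed by its standard error (SE) from the fit. Since whole samples were measured, fewer cells that express a gene and less RNA in each cell cannot be told apart.

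**Figure D1:**
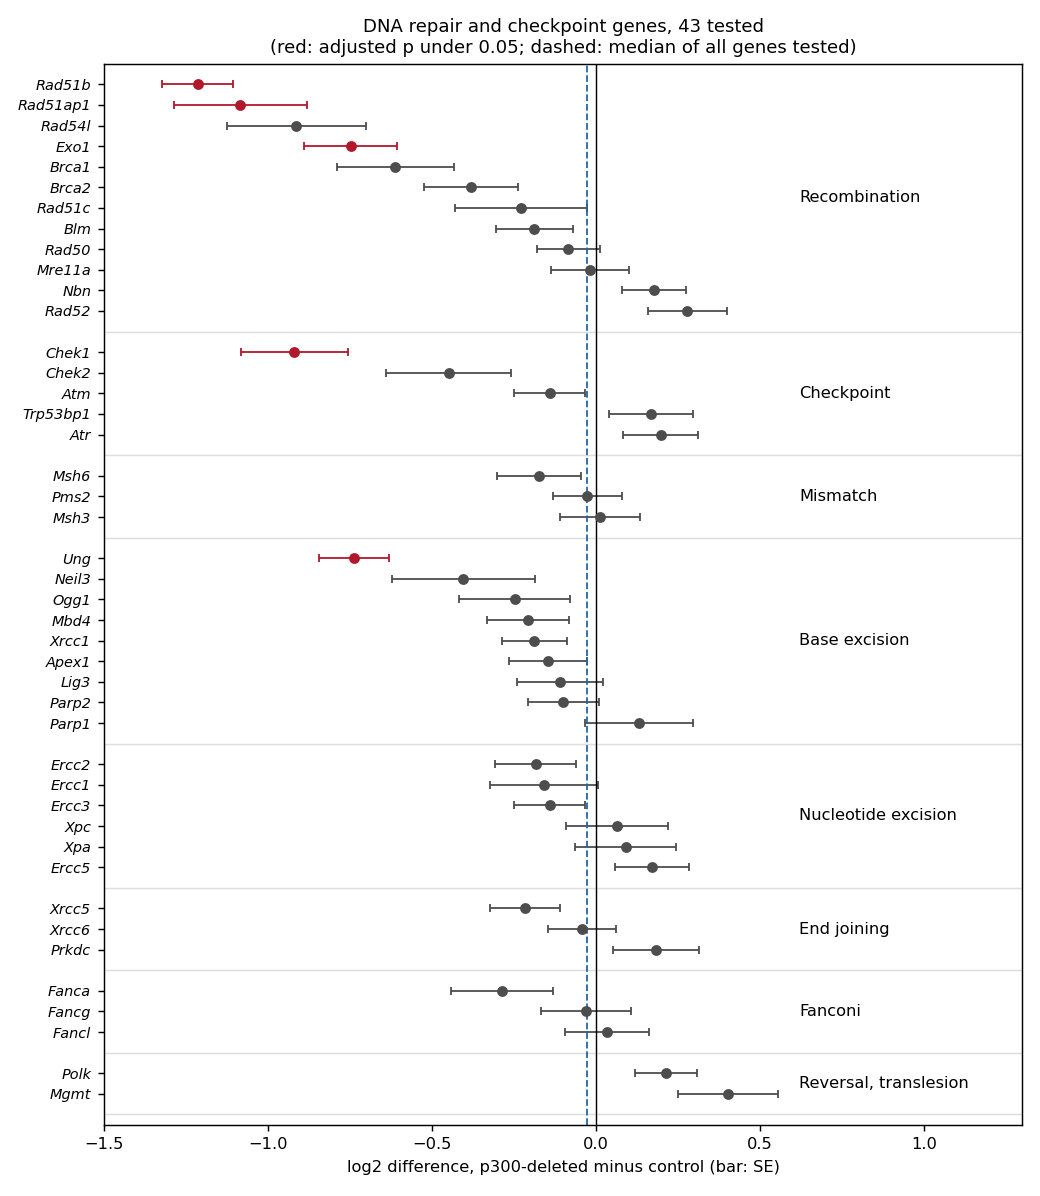
Log2 difference, p300-deleted minus control, of the 43 tested members (points) with the SE of the limma fit (bars), grouped by repair route; red points have an adjusted p under 0.05 and the dashed line is the median of all genes tested. Rad51b (-1.21), Rad51ap1 (-1.08), Chek1 (-0.92), Exo1 (-0.75) and Ung (-0.74) lie to the left in red, while mismatch, nucleotide excision and end joining genes lie within 0.22 of 0.

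Homologous recombination held the widest spread. Of its 12 tested members 3 fell, 0 rose and 9 did not pass, and the median was -0.31. Rad51b, which acts in the repair of breaks by recombination, read 3.71, 3.85 and 3.80 in p300-deleted arrays 1 to 3, against 4.92, 5.15 and 4.94 in control arrays 1 to 3, the order kept below. The groups were separated by a gap far wider than the spread within either. Rad51b fell by 1.21 (SE 0.11, adjusted p = 0.00337). It passed the filter on dim genes through its controls, since all its p300-deleted arrays lay under the limit of 3.91, so the size of the fall is measured against values near the floor. The small spread of these arrays (SD 0.07), which enters the SE and the adjusted p, is likewise that of values near the floor.

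Rad51ap1, which stimulates strand invasion, read 5.58, 5.21 and 5.23 against 6.12, 6.26 and 6.89. It fell by 1.08 (SE 0.20, adjusted p = 0.0450), with the highest value in control 3. Exo1, an exonuclease that resects broken ends and also serves mismatch repair, read 4.70, 4.29 and 4.43 against 5.26, 5.03 and 5.38. Exo1 fell by 0.75 (SE 0.14, adjusted p = 0.0459), and all its p300-deleted arrays were below all its controls.

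Rad54l, a translocase that assists strand invasion, read 5.13, 4.99 and 4.89 against 5.71, 5.59 and 6.45. Its groups did not overlap, but the difference of -0.91 (SE 0.21, adjusted p = 0.0760) did not pass. Brca1, the ubiquitin ligase that acts in resection of broken ends, read 5.69, 5.48 and 5.92 against 6.22, 6.04 and 6.66, a difference of -0.61 (SE 0.18, adjusted p = 0.126). Brca2, which acts after resection, read 5.90, 5.48 and 5.73 against 5.95, 6.02 and 6.30, a difference of -0.38 (SE 0.14, adjusted p = 0.218). In these 3 genes the groups lay apart and control 3 was the highest array, without a call. Bard1, the obligate partner of Brca1, was too dim to test and read 3.68, 3.34 and 3.62 against 3.71, 3.72 and 4.12.

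Other recombination members differed little. The break sensor complex of Mre11a, Rad50 and Nbn, which also serves checkpoint signalling, had differences of -0.02 (SE 0.12), -0.08 (SE 0.10) and 0.18 (SE 0.10). Of these Nbn read 7.18, 7.30 and 7.24 against 7.05, 7.11 and 7.03, higher in p300-deleted cells without overlap (adjusted p = 0.388). Rad50 read 7.52, 7.55 and 7.58 against 7.65, 7.59 and 7.66, lower without overlap by a step of the size of its SE (adjusted p = 0.693). Rad52, which anneals single strands, was the member of this route with the highest positive value, at 5.97, 6.12 and 5.77 against 5.66, 5.77 and 5.6. At the printed precision the lowest p300-deleted and the highest control value of Rad52 coincide, and the difference was 0.28 (SE 0.12, adjusted p = 0.269). Rad51c, which also acts in recombination, was at -0.23 (SE 0.20) and the helicase Blm at -0.19 (SE 0.12), both with overlapping groups.

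**Figure D2:**
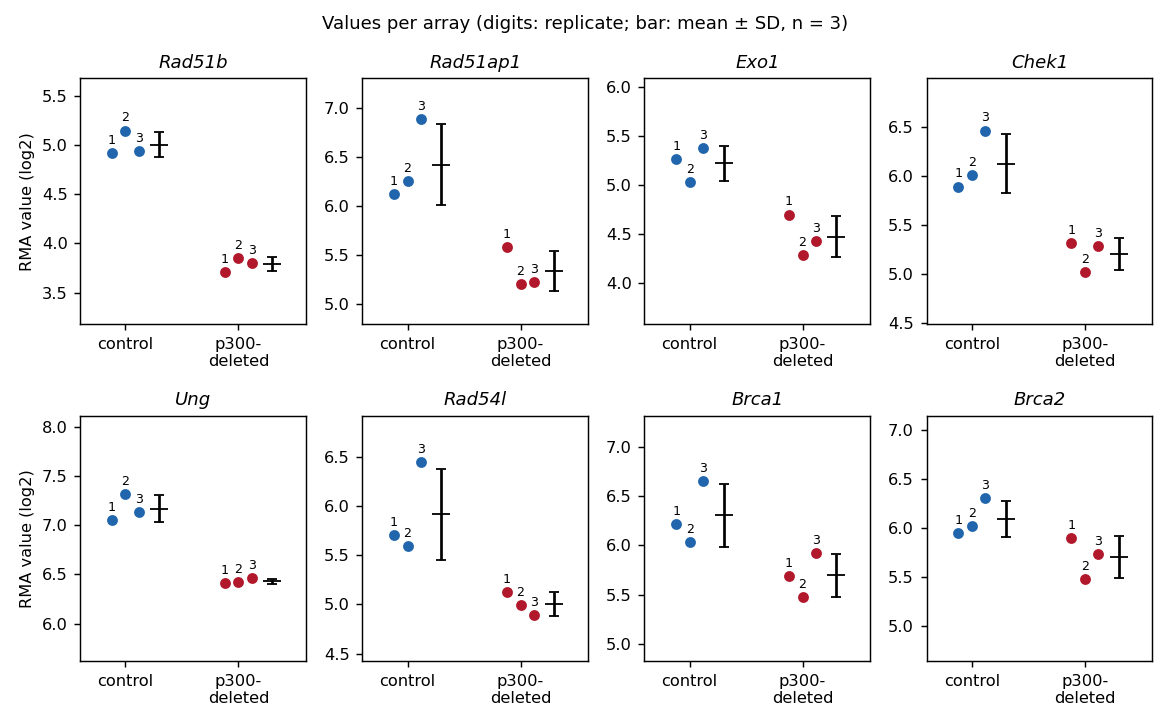
RMA values (log2) of 8 members in each control (blue) and p300-deleted (red) array, numbered by replicate, with mean ± SD (n = 3); every panel spans the same range of log2 units. Rad51b and Ung are tight within groups, whereas control 3 is the highest array for Rad51ap1, Exo1, Chek1, Rad54l, Brca1 and Brca2.

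The checkpoint genes were also unequal. Of 5 tested, 1 fell and 4 did not pass, with a median of -0.14. Chek1, the kinase that ATR activates at stalled replication forks, read 5.31, 5.02 and 5.28 against 5.89, 6.01 and 6.46. Every p300-deleted array was below every control, and Chek1 fell by 0.92 (SE 0.16, adjusted p = 0.0405), or 1.89-fold. Chek2, the kinase downstream of ATM, read 4.55, 4.43 and 4.69 against 4.93, 4.64 and 5.44, with overlap, and was at -0.45 (SE 0.19, adjusted p = 0.263). The upstream kinases did not pass. Atr read 7.34, 7.37 and 7.39 against 7.31, 6.98 and 7.21 and was at 0.20 (SE 0.11, adjusted p = 0.410), higher without overlap. Atm was at -0.14 (SE 0.11, adjusted p = 0.554), and Trp53bp1, which shields broken ends from resection, was at 0.17 (SE 0.13, adjusted p = 0.544).

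Among base excision genes 1 of 9 tested fell and 8 did not pass, with a median of -0.19 and 8 negative values. Ung, the glycosylase that removes uracil from DNA and that also acts in antibody class switching of B cells, read 6.41, 6.42 and 6.46 against 7.05, 7.32 and 7.14. Its p300-deleted arrays agreed within 0.05, and Ung fell by 0.74 (SE 0.11, adjusted p = 0.0223), or 1.67-fold. Mean levels of the 6 B cell markers that could be tested overlapped between the groups, at 6.47 to 7.26 in p300-deleted and 7.18 to 7.38 in control arrays. All 6 had negative values (median -0.30), 1 of them fell, Spib (-0.95), and Pax5, Cr2 and Fcer2a were below the limit for dim genes. The part of B cells in the Ung difference was not tested.

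The scaffold protein Xrcc1, which holds the enzymes of single-strand break repair together, read 6.96, 6.95 and 7.02 against 7.16, 7.25 and 7.09, lower without overlap at -0.19 (SE 0.10, adjusted p = 0.365). Neil3, a glycosylase for oxidised bases, was at -0.40 (SE 0.22, adjusted p = 0.375), with control 2 (4.42) below every p300-deleted array. The other members of this route lay between -0.25 and 0.13. They were the glycosylases Ogg1 (-0.25) and Mbd4 (-0.21), the endonuclease Apex1 (-0.15), the ligase Lig3 (-0.11) and the break sensors Parp2 (-0.10) and Parp1 (0.13).

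Nucleotide excision showed no call in limma among 6 members, with 0 at an unadjusted p under 0.05, 0 with groups apart and a median of -0.04. Differences ran from -0.18 for Ercc2, a helicase of the repair and transcription factor TFIIH, to 0.17 for Ercc5, an endonuclease that cuts beside the lesion. Ercc2 read 6.93, 6.98 and 7.05 against 7.25, 6.95 and 7.31, with overlapping groups. Between them were the nuclease subunit Ercc1 (-0.16), the TFIIH helicase Ercc3 (-0.14), the lesion sensor Xpc (0.07) and the damage verifier Xpa (0.09).

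The 3 mismatch members that were tested had 0 calls in limma, 0 at an unadjusted p under 0.05 and a median of -0.03. Exo1, which fell and also serves mismatch repair, is counted under recombination, so the contrast of these routes depends on that placement. Msh6, which finds single mismatches, read 7.84, 8.04 and 8.13 against 8.22, 8.0 and 8.31, a difference of -0.17 (SE 0.13, adjusted p = 0.526). Pms2, the endonuclease subunit, was at -0.03 (SE 0.10), and Msh3, which finds larger loops, was at 0.01 (SE 0.12).

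End joining likewise had 0 calls in limma and 0 at an unadjusted p under 0.05 among 3 tested members, with a median of -0.04. Xrcc5, the larger Ku subunit, read 6.72, 6.79 and 6.95 against 7.07, 7.08 and 6.95, a difference of -0.22 (SE 0.11, adjusted p = 0.334), and its closest arrays, p300-deleted 3 and control 3, are equal at the printed precision. Its partner Xrcc6 was at -0.04 (SE 0.10), and Prkdc, the DNA-dependent kinase that Ku recruits, was at 0.18 (SE 0.13), both with overlap.

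Members that act on crosslinks, alkylated bases and stalled forks did not pass either. Fanca, of the Fanconi core complex, was at -0.29 (SE 0.16, adjusted p = 0.381), and read 5.45, 5.69 and 5.44 against 5.78, 5.55 and 6.12. The core protein Fancg (-0.03) and the ubiquitin ligase Fancl (0.03) lay near 0. Mgmt, which strips alkyl groups from guanine, had the highest positive value of all members at 0.40 (SE 0.15, adjusted p = 0.217), with 6.39, 6.42 and 6.68 against 5.92, 6.39 and 5.96. Polk, a polymerase that copies past lesions, read 6.49, 6.56 and 6.47 against 6.31, 6.26 and 6.31, higher without overlap at 0.21 (SE 0.10, adjusted p = 0.285).

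Set side by side, the medians of the routes named for comparison were -0.31 for recombination, -0.19 for base excision, -0.04 for nucleotide excision, -0.04 for end joining and -0.03 for mismatch repair, beside -0.03 over all genes tested. Groups lay apart and lower for 7 of 12 recombination members, 2 of 9 base excision members, 1 of 3 end joining members and 0 of 9 nucleotide excision and mismatch members together. Over all genes tested the share apart and lower was 13.2%. The recombination median was -0.192 without control 3. It was -0.018 when the dimmest 50% of genes were dropped, which leaves only Rad50, Nbn and Mre11a of this route to test. The routes were not tested against each other. Per array, the mean over recombination members of the deviation from each gene's own mean was -0.12, -0.25 and -0.25 for p300-deleted and 0.14, 0.11 and 0.37 for control arrays. Mean deviations of mismatch, nucleotide excision, end joining and Fanconi genes overlapped between the groups. Those of Mgmt and Polk together lay apart and higher, at 0.09, 0.14 and 0.23 for p300-deleted and -0.23, -0.02 and -0.21 for control arrays.

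Markers of proliferation were lower in the same group. Of 32 tested proliferation genes 8 fell, 0 rose and all 32 had negative values, with a median of -0.88 and, in the p300-deleted arrays, mean levels of 6.88 to 7.31 against 7.55 to 8.38 in the controls. The mean deviation of these markers was highest in control 3, at 0.90, and 31 of the 32 had their highest control value there, as did 8 of 12 recombination members against 27.4% of all genes tested. Among p300-deleted arrays, array 1 was the highest for 28 of the 32 markers, for 6 of 12 recombination members and for 2912 of 8675 genes tested. Rad51b and Ung had their highest control value in control 2, at 5.15 and 7.32. The replication genes Ccne1 (-0.88), Mcm3 (-0.85), Tk1 (-0.77), Rrm1 (-0.70) and Mcm5 (-0.68) fell, and so did the mitotic genes Aurkb (-1.38), Ttk (-1.26) and Kif20a (-1.07). The part of proliferation in the differences of the repair genes was not tested.

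**Figure D3:**
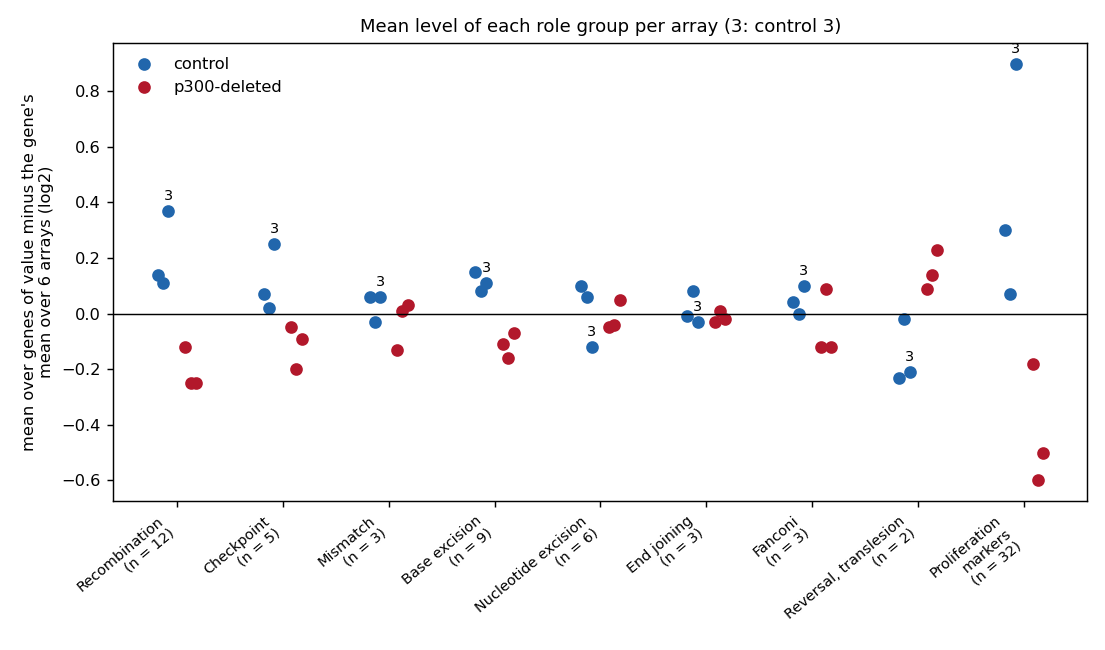
Mean over the tested genes of each role group of the value minus that gene's mean over the 6 arrays (log2), for each control (blue) and p300-deleted (red) array, beside the same for 32 proliferation markers; the digit 3 marks control 3. Recombination, checkpoint and base excision arrays lie apart and lower in p300-deleted cells, and those of the reversal and translesion genes (Mgmt and Polk) lie apart and higher. Mismatch, nucleotide excision, end joining and Fanconi arrays overlap. Control 3 is highest for recombination (0.37), checkpoint (0.25) and proliferation (0.90).

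Markers of other cell types also differed. Of 8 tested plasma cell markers 5 rose, with mean levels of 8.46 to 8.96 in p300-deleted and 7.76 to 7.89 in control arrays. Sdc1 (0.81), Irf4 (0.19) and Prdm1 (-0.09), the 1 negative value, were not called. Of 8 mast cell and basophil markers 6 rose, with 5.83 to 6.50 against 4.83 to 4.97. All 10 tested myeloid markers had positive values with 0 calls in limma and 4 below 0.05 before adjustment, at 7.45 to 8.61 against 6.44 to 7.30. Of 7 natural killer markers 2 rose and 3 had negative values, Gzmb (-1.12), Nkg7 (-0.37) and Eomes (-0.26), none of them called in limma (Gzmb at an unadjusted p under 0.05), and the arrays overlapped, with 7.43 to 8.03 against 7.11 to 7.49. The 7 tested T cell markers all had positive values, with 0 calls in limma and 3 below 0.05 before adjustment, and read 11.13 to 11.24 against 10.83 to 10.99. Among the markers of these cells Itgam, Cd14 and Ms4a2 were below the limit for dim genes. The part of other cells in the repair gene differences was not tested.

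The wider repair network was read from a list of further genes of the same routes. Of 67 tested, 0 passed in limma in either direction, 14 were lower and 4 higher at an unadjusted p under 0.05, and the median was -0.05. Largest in size were Cdc25c, the phosphatase that CHEK1 restrains, at -0.79 (SE 0.20, adjusted p = 0.0893), the nuclease subunit Eme1 at -0.67 (SE 0.17, adjusted p = 0.0912) and the replicative ligase Lig1 at -0.60 (SE 0.15, adjusted p = 0.0880). By route, the further recombination genes had 5 of 12 lower at an unadjusted p under 0.05, the checkpoint genes 5 of 15 and the nucleotide excision genes 0 of 10. Over all genes tested 9.89% were lower and 8.21% higher at that threshold. Groups lay apart and lower for 18 of the 67 genes (26.9%), against 13.2% of all genes tested.

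Probe sets of a gene did not always move together. Among the 19 members with several probe sets there were 33 further probe sets, and 8 of these, each of a different gene, had the opposite sign to the brightest. Rad51b had a second, dim probe set at 2.71, 2.70 and 2.72 against 2.60, 2.46 and 2.57, a difference of 0.17. For Chek1 a second probe set was at -0.765 and lay apart, and the remaining ones, both dim, were at 0.039 and -0.155. Of 3 further probe sets of Rad51ap1, 1 matched the brightest at -1.08 and the others were at -0.02 and -0.31. The further probe set of Exo1 was at -0.34 with overlapping groups, while Ung had no other. Brca1 had further probe sets at -0.53, -0.20 and 0.08. The Chek1 probe set in use and 2 further ones of Rad51ap1 have identifiers ending in _s_at, which marks probes that can bind several transcripts.

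Upstream sequences are shown for Rad51b, Rad51ap1, Chek1 and Ung, which fell, and for Brca2 and Chek2 as examples. These 2 serve recombination and checkpoint and were lower at an unadjusted p under 0.05 in limma, but did not pass. They are the 250 bases before the start, from RefSeq on GRCm38.p6, read on the gene's own strand: Rad51b at chr12:79297032-79297281 on the plus strand, Rad51ap1 at chr6:126939588-126939837 on the minus strand, Chek1 at chr9:36726659-36726908 on the minus strand, Ung at chr5:114130185-114130434 on the plus strand, Brca2 at chr5:150522371-150522620 on the plus strand and Chek2 at chr5:110839733-110839982 on the plus strand. Rad51b has 2 overlapping windows, of which the upstream one is shown. Promoters were matched by symbol for 40 of the 46 members, and Exo1 was not among them. Capitals mark CCAAT boxes (CCAAT, or ATTGG on the other strand), E2F letters (GCGGGAAA, which is TTTCCCGC on the other strand) and the CRE (TGACGTCA).
Rad51b: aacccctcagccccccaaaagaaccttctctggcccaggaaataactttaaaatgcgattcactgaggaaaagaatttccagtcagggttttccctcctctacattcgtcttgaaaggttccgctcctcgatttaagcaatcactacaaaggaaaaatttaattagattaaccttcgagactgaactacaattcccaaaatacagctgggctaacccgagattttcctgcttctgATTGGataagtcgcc
Rad51ap1: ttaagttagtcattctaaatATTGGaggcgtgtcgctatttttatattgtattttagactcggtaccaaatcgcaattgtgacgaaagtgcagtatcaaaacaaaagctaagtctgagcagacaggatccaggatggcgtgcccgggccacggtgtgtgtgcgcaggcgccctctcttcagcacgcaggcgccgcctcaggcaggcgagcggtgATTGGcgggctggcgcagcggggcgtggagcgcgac
Chek1: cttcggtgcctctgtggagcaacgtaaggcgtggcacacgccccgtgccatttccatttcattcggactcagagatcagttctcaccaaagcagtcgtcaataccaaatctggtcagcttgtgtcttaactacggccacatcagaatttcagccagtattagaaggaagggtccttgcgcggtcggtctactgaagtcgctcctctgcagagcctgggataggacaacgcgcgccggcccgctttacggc
Ung: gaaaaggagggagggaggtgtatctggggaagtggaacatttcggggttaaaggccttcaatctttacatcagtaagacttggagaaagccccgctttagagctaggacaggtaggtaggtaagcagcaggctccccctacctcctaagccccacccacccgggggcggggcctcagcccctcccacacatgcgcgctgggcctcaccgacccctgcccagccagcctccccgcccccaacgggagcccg
Brca2: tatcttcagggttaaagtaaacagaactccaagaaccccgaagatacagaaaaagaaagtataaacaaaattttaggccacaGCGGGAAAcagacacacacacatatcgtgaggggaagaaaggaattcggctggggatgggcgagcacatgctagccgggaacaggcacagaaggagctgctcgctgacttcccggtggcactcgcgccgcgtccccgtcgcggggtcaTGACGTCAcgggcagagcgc
Chek2: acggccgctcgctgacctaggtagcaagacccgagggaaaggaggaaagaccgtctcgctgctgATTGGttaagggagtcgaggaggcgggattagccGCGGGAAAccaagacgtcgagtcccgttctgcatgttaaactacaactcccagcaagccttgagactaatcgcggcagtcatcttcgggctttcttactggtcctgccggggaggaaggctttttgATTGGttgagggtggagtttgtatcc

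In windows of 300 bases, from 250 before to 50 after the start, 4 motifs were searched on both strands. They were E2F (TTTGGCGC, TTTCCCGC, TTTGCCGC and TTTCGCGC), bound by cell cycle transcription factors, the cell cycle homology region (TTTGAA and TTCGAA), the CCAAT box and the CRE (TGACGTCA), bound by factors that recruit p300 and its paralogue. E2F letters stood in 9 of 46 member windows (19.6%), against 4.10% of 9088 windows of genes tested and 2.26% of all 32851 windows. They were in Bard1, Brca2, Chek2, Fancg, Msh3, Msh6, Rad51c and Xrcc6, in Msh3 as 2 overlapping matches, and in 0 of the 4 fallen members with a window (5 windows, 2 of them of Rad51b). CCAAT boxes were in 2 of those 4 genes, in Rad51b at position -15 from the start shown, or -84 from its second start, and in Rad51ap1 at -36 and -230, and in 23 of 46 member windows against 37.2% of windows of genes tested. The printed stretches of Chek1 and Ung held none of the motifs. Of the 36 members with a window that were not called, tested or not, 8 held E2F letters. Brca2 and Chek2, printed above, are among these 8, while Brca1, Atm and Atr, of the same routes, held none. The printed sequences therefore do not show how fallen members compare with the others. The cell cycle homology region was in 6 of 46 member windows against 13.6%, and the CRE in 6.52% against 2.86%, in Brca2, Rad51c and Tdg. Of the 4 fallen members with a window, 1 held the cell cycle homology region. This was Rad51b, with TTTGAA at position 8 after its second start, outside the printed stretch. In the printed sequences no letters of different motifs overlap. A match describes these letters only.

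How firmly each of the 5 falls stood varied. With the brightest probe set Rad51b passed under all 13 alternative settings in which it could be tested, at -1.254 to -1.141 with adjusted p of 0.000709 to 0.0363, while its further probe set had the opposite sign (0.167, adjusted p = 0.5 in limma on all probe sets). All these settings rest on p300-deleted arrays of Rad51b near the floor, so the passes are no separate support for its fall. Ung passed under 9 of 14 (adjusted p 0.00480 to 0.109), Chek1 under 7 of 14 (0.00971 to 0.160), Exo1 under 7 of 14 (0.00811 to 0.198) and Rad51ap1 under 6 of 14 (0.0114 to 0.176). Over these settings the differences were -0.80 to -0.66 for Ung, -1.07 to -0.45 for Chek1, -0.86 to -0.545 for Exo1 and -1.325 to -0.62 for Rad51ap1, where the values nearest 0 of the last 3 came from averaging probe sets. Only Rad51b passed when p300-deleted 1, p300-deleted 2, p300-deleted 3 or control 1 was left out, and with the 18S level as a covariate. With that covariate the differences were -1.325 for Rad51ap1, -1.07 for Chek1, -0.765 for Exo1 and -0.73 for Ung, so these calls were lost at differences close to or larger than those reported. Dropping the dimmest 50% of genes left Ung as the only fallen member to test, and it passed. Only Ung passed when probe sets of a gene were averaged, which puts Rad51b below the limit for dim genes. Without control 2 the members that passed were Rad51b, Ung, Exo1 and Neil3, and without control 3 they were Rad51b, Ung, Chek1, Rad51ap1 and Rad54l.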

How the data were processed

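RNA of 3 p300-deleted and 3 control Treg samples was measured on 1 array each. The values the authors deposited are log2 expression, 1 per probe set. Per the submitters' processing notes they come from RMA, which equalises the arrays' distributions, so that a shift of all RNA in a cell cannot be seen. The sources used here give no RMA version. Of 22690 probe sets, 64 are controls, 20380 have 1 gene symbol, 691 several and 1555 none in the platform annotation, and 20351 matched RefSeq (GRCm38.p6) by gene ID. The brightest probe set by mean over the 6 arrays stood for each gene. The dimmest 30% of genes (mean below 3.91) were left out, Bard1 among them, leaving 8675.

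The 2 groups were tested in limma 3.58.1 (R 4.3.3; lmFit, then eBayes; two-sided), with Benjamini-Hochberg adjustment over all 8675 genes. The median SE was 0.126, and the 3 arrays per group limit precision. The labels call the samples independent but name no animals, so p-values reflect only how these samples vary, possibly for technical reasons. On simulated data of 8675 genes this fit recovered 20.8% of genes changed by 0.5, 88.6% changed by 1 and 99.2% changed by 2 on the log2 scale, and 5.81% of its calls were unchanged genes. Each simulated gene varied on its own, with the same spread in both groups. The real control arrays correlated with each other at 0.988 to 0.993 and the p300-deleted arrays at 0.995 to 0.996. Rates in the real data may therefore differ. Members and lists were chosen with earlier results of these data known. Every member is accounted for, and values per array are given for members past the threshold, at an unadjusted p under 0.05, with groups apart, or largest in their route; the rest have the difference only. Of the further repair genes the 3 largest differences are named, and of the marker lists the genes past the threshold for proliferation, Treg and B cells only.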

Additional observations from a re-analysis of the deposited data

How the results depend on the processing

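As reported, 5 members fell and 0 rose. The fallen count was 1 with the dimmest 50% of genes excluded, 1 with the mean of all probe sets, 1 with the 18S covariate and 8 with array weights, where 1 member also rose; the first leaves only 28 members to test. Leaving out each array gave 1 to 5. With the replicate number as a block 4 fell and Rad51ap1 did not pass; counts for further repair genes were the same, and calls over all genes were 98. Deviations of same-numbered samples correlated at -0.074, 0.123 and -0.120, and not every sample correlated best with its own number. These values show no pairing by number, but 3 arrays per group cannot exclude it. Further repair genes that fell numbered 11, with 3 that rose, with array weights, 7 at an adjusted p under 0.1, and 0 to 1 without each array. Members apart and lower numbered 4 without the dimmest 50% of genes. That filter gave medians of -0.018 for recombination, 0.17 for checkpoint and -0.15 for base excision genes. The 18S covariate gave -0.11 for mismatch, -0.13 for base excision, 0.12 for nucleotide excision and -0.10 for end joining, and array weights gave 0.012 for end joining. Without each array the medians ran from -0.42 to -0.19 for recombination, -0.22 to -0.14 for base excision and -0.081 to 0.015 for end joining. The cause of these shifts was not tested. Over all genes, 149 calls became 1019 with array weights, 15 with the 18S covariate and 9 to 230 without each array.

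Of the single members, 16 turned sign in at least 1 of the alternatives. A further probe set turned Rad51b (0.17), Rad52 (-0.032), Brca1 (0.082), Chek1 (0.039), Msh3 (-0.014), Parp1 (-0.24), Fancg (0.13) and Polk (-0.093). The 18S covariate turned Mre11a (0.061), Lig3 (0.007), Ercc1 (0.095), Fancg (0.009) and Fancl (-0.022). Array weights turned Msh3 (-0.039), Pms2 (0.010), Xpc (-0.14) and Xrcc6 (0.012), a further quantile normalization Pms2 (0.0), and the mean of all probe sets Parp1 (-0.022) and Fancg (0.049). Without each array Mre11a ran from -0.108 to 0.055, Msh3 from -0.083 to 0.079, Pms2 from -0.065 to 0.043, Parp1 from -0.029 to 0.223, Xpa from -0.049 to 0.252, Xpc from -0.040 to 0.238, Xrcc6 from -0.081 to 0.015, Fancg from -0.113 to 0.085 and Fancl from -0.047 to 0.130. The cause was not tested.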
